A study of Mus musculus with 6 samples.

Results

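The Ikaros family of zinc-finger transcription factors was followed in mouse B progenitor acute lymphoblastic leukemia, in 3 libraries from mice given doxycycline (dox) food for 3 days and 3 libraries from untreated mice. The 4 members were taken by gene name, Ikzf1, Ikzf2, Ikzf3 and Ikzf5, out of 26286 genes in the table, and all 4 were found by their Entrez Gene identifiers. The rule itself uses no measured value. Every library came from tri-transgenic leukemia A024, sorted from the marrow of leukemic Rag1 knockout mice. The dox libraries (labelled as Pax5 restoration) held GFP-mid cells and the untreated libraries GFP-high cells, so the sort gate changed together with the treatment and their effects cannot be told apart. The transgenes, the strain and the age of the mice are not described in the labels used here. As background on the published model, dox shuts off a hairpin RNA against Pax5, the factor that holds cells in the B lineage. All replicates carry 1 leukemia and are taken here to be separate mice. The p-values therefore speak to the spread among these replicates and not among leukemias.

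Ikaros proteins bind DNA through zinc fingers near the N terminus and pair with each other through zinc fingers at the C terminus. They recruit chromatin complexes, above all the repressive NuRD complex, and in the B lineage they limit proliferation and help the passage from large to small pre-B cells. Ikzf1 encodes Ikaros, a tumor suppressor that is often deleted in human B progenitor leukemia. Ikzf3 encodes Aiolos, a B lineage relative that increases as precursors mature. Ikzf2 encodes Helios, known mainly from regulatory T cells and blood stem cells. Ikzf5 encodes Pegasus, a divergent and widely expressed relative.

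The finger sequences are shown because they tell how alike the detected and undetected members are in a DNA-binding stretch. They are coding sequence from GENCODE M21 transcripts on GRCm38, where Ikzf1 and Ikzf3 lie on chromosome 11, Ikzf2 on chromosome 1 and Ikzf5 on chromosome 7. Capitals mark bases that differ from Ikzf1, which is therefore all in lower case. The set covers 147 bases, or 49 codons, of a pair of N-terminal fingers. These are the second and the third fingers of Ikzf1, Ikzf2 and Ikzf3 and the first pair of Ikzf5, which lacks 1 of the fingers found in the others (5 against 6).
Ikzf1: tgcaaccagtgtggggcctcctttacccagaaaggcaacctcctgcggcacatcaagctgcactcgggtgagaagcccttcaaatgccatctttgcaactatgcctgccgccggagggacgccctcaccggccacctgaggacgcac
Ikzf2: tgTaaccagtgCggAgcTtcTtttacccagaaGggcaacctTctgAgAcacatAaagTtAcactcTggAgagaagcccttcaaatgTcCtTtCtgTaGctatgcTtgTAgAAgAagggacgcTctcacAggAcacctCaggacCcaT
Ikzf3: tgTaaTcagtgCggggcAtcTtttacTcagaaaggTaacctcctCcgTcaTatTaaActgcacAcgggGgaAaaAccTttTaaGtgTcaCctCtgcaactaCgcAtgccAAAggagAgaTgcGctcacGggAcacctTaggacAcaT
Ikzf5: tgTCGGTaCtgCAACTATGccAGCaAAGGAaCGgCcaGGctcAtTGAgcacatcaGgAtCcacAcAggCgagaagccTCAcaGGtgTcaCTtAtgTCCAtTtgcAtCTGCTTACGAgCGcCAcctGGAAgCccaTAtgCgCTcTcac
Ikzf3 differs from Ikzf1 at 35 of these bases, yet 47 of 49 codons encode the same residue. For Ikzf2 it is 32 bases and 46 codons. Ikzf5 differs at 77 bases and shares the residue at 19 codons. Which Ikzf5 fingers to set against the others was assumed and no other choice was compared, so these values hold for that choice alone. The longest run of identical bases between the Ikzf1 and Ikzf3 transcripts was 26, and it was 15 to 20 between the other pairs. Read length is not given in the sources used here, so reads that could not be placed between members cannot be counted.

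Ikzf3 rose after dox, whereas Ikzf1 and Ikzf5 did not pass the test and Ikzf2 was not detected. Levels are given as CPM, read counts scaled to library size with edgeR's TMM factors. Ikzf3 (Entrez Gene 22780) measured 381.6, 456.0 and 379.2 CPM in dox replicates 1, 2 and 3, against 226.3, 255.3 and 237.9 CPM in untreated replicates 1, 2 and 3. Every dox library lay above every untreated library. The means were 405.6 ± 43.7 CPM in dox and 239.8 ± 14.6 CPM in untreated mice (SD, n = 3 each). This is a 1.69-fold rise, with a log2 fold change of 0.76 (SE 0.09, 95% interval 0.56 to 0.96, adjusted p = 0.000132, edgeR quasi-likelihood test with Benjamini-Hochberg adjustment over all genes tested). It was the only member called among the 3 that passed the filter on low counts. Among all 12275 genes tested, 53.6% were called at an adjusted p under 0.05, 27% higher and 26.6% lower, so a call by itself is common in this comparison. Groups that do not overlap are common too, at 62.2% of all genes tested and 1 of the 3 tested members. Bulk counts cannot tell more RNA per cell from a larger share of cells that hold it.

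Ikzf1 (Entrez Gene 22778) was abundant in both groups. It measured 511.1, 513.2 and 535.6 CPM in the dox libraries, against 515.8, 470.0 and 456.2 CPM in the untreated libraries. The groups overlapped, because untreated replicate 1 lay above dox replicates 1 and 2. Means were 520.0 ± 13.6 CPM in dox and 480.7 ± 31.2 CPM in untreated mice (SD, n = 3 each). With a log2 fold change of 0.11 and a 95% interval of -0.05 to 0.28, Ikzf1 did not pass (adjusted p = 0.212, edgeR). That interval lies wholly below the one for Ikzf3.

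Ikzf5 (Entrez Gene 67143) was the lowest of the detected members. It measured 41.1, 44.0 and 49.6 CPM in the dox libraries, against 50.5, 52.8 and 45.3 CPM in the untreated libraries. Groups overlapped here as well, since dox replicate 3 lay above untreated replicate 3. The means were 44.9 ± 4.35 CPM in dox and 49.5 ± 3.81 CPM in untreated mice (SD, n = 3 each), a log2 fold change of -0.14 with a 95% interval of -0.35 to 0.07 (adjusted p = 0.231, edgeR).

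Ikzf2 (Entrez Gene 22779) had 0 counts in each of the 6 libraries, although its listed length of 9424 bases is the longest of the 4. For a count of 0, 3 counts were taken as an approximate 95% upper limit. This is 0.192 to 0.209 CPM per dox library and 0.201 to 0.21 CPM per untreated library. Over all 6 libraries together the limit is 0.0337 CPM. These limits cover counting error only, and no fold change was computed. Ikzf4, which encodes Eos and is not among the 4 members, was looked at after its values had been seen. It had 8, 15 and 10 counts in the dox libraries and 4, 4 and 8 in the untreated libraries, too few to enter the test.

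**Figure D1:**
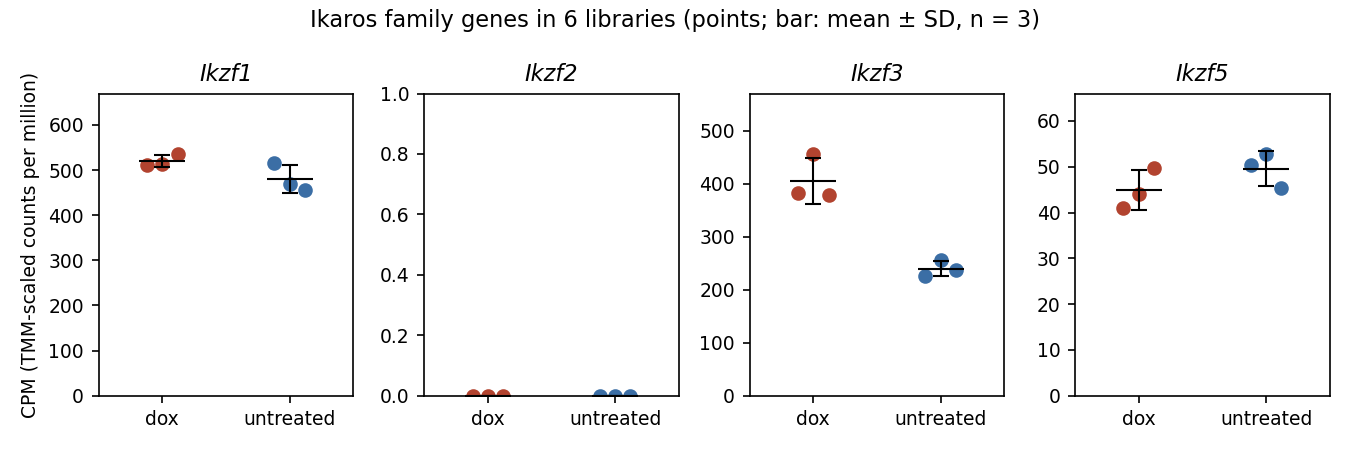
CPM (vertical axis, from 0, a separate scale for each gene) of the 4 Ikaros family genes in dox and untreated libraries; points are libraries, the horizontal bar is the mean and the whiskers are the SD (n = 3 each). Only the Ikzf3 groups stand apart, at 379.2 CPM or more in dox and 255.3 CPM or less in untreated libraries, while Ikzf2 is at 0 throughout.

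Levels of different genes can be compared only per length, so CPM was divided by the deposited gene length in kilobases, which gives RPKM. In dox libraries Ikzf1 stood at 100.7 ± 2.64 RPKM and Ikzf3 at 99.0 ± 10.7 RPKM (SD, n = 3). Their ranges overlapped, 99.0 to 103.7 RPKM for Ikzf1 and 92.5 to 111.3 RPKM for Ikzf3, so these neighbors did not differ beyond their spread. Ikzf5 followed at 10.2 ± 0.99 RPKM. In untreated libraries the order was clear of the spread at each step, with Ikzf1 at 93.1 ± 6.04 RPKM, Ikzf3 at 58.5 ± 3.57 RPKM and Ikzf5 at 11.3 ± 0.869 RPKM (SD, n = 3).

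Within the summed RPKM of the family, the share of Ikzf3 was 46.2%, 50.4% and 44.6% in the dox libraries, against 33.1%, 37.7% and 37.0% in the untreated libraries. The share of Ikzf1 was 49.1%, 45.0% and 50.0% in dox and 60.0%, 55.0% and 56.4% in untreated libraries. Ikzf5 made up 4.54% to 5.45% in dox and 6.59% to 7.27% in untreated libraries. The sum itself was 209.9 ± 9.83 RPKM in dox and 162.9 ± 5.37 RPKM in untreated mice (SD, n = 3 each). Shares of a sum are tied to each other, so a larger share of 1 member lowers the others.

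**Figure D2:**
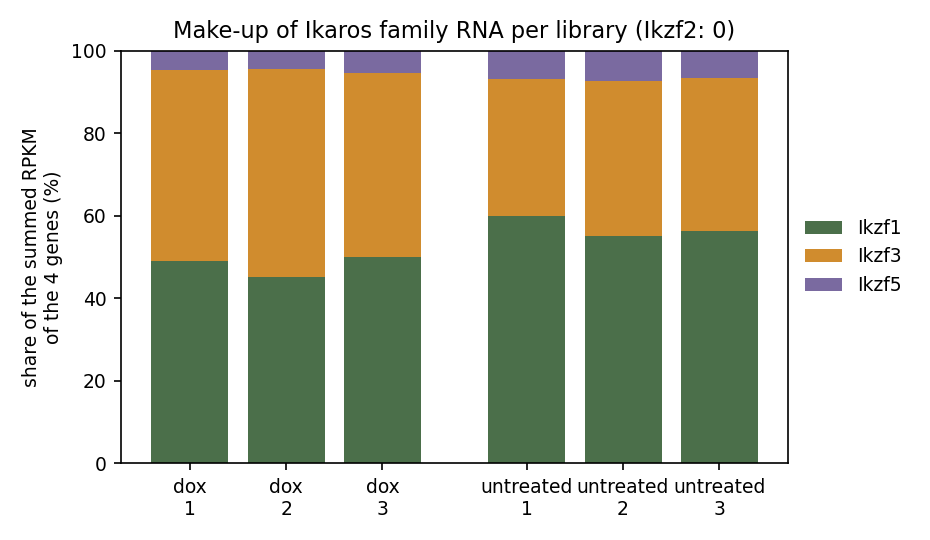
Stacked bars give each gene's share (percent, vertical axis) of the summed RPKM of the 4 genes in each of the 3 dox and 3 untreated libraries. The Ikzf3 band spans 44.6% to 50.4% in dox libraries and 33.1% to 37.7% in untreated libraries.

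The ratio of Ikzf3 to Ikzf1 within a library tests whether these members changed unequally, and it does not depend on library scaling. Per RPKM it was 0.941, 1.12 and 0.892 in dox replicates 1, 2 and 3, against 0.553, 0.684 and 0.657 in untreated replicates 1, 2 and 3. The groups did not overlap, and the mean log2 ratio was 0.64 higher in dox libraries. The ratio of Ikzf5 to Ikzf1 was 0.0945, 0.101 and 0.109 in dox and 0.115, 0.132 and 0.117 in untreated libraries, with a log2 difference of -0.26. For Ikzf5 over Ikzf3 the log2 difference was -0.90. All 3 pairs gave p = 0.1 in an exact two-sided permutation test over libraries (0.1 also after adjustment over the 3 pairs), which is the smallest value that 3 libraries against 3 allow.

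The genes whose pattern over the 6 libraries was nearest to that of each member were picked by the smallest root mean square difference of mean-centered log2 CPM among 10111 genes. Near Ikzf3 lay Ppp1r18, a regulatory subunit of protein phosphatase 1 (0.034 log2 units). Ppp1r18 measured 384.3, 449.1 and 380.1 CPM in dox libraries against 233.3, 245.7 and 230.7 CPM in untreated libraries. Its peak in dox replicate 2, shared with Ikzf3, follows from the way it was picked. Vapa and Klhl9 lay nearest to Ikzf1 (0.023 and 0.024), and Uqcc1 and Ppip5k2 nearest to Ikzf5 (0.03 and 0.036). These distances are descriptions over 6 libraries and say nothing of shared function.

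Markers of other cells were read beside these results. The 9 B progenitor markers, with Cd24a and Vpreb1 the most abundant, summed to 9529 to 10442 CPM in dox libraries and 6085 to 6387 CPM in untreated libraries. Cd24a alone of the 9 was lower in dox libraries. Of 8 T cell markers, Cd3e and Cd8a had no count in any library. The sum of 494.8 to 662.9 CPM in dox and 711.1 to 794.5 CPM in untreated libraries came almost wholly from Lck and Il2ra. These did not move together. Lck was lower in dox libraries (log2 fold change -1.63), whereas Il2ra did not pass (0.09, adjusted p = 0.451, edgeR). Foxp3, which defines regulatory T cells, measured 10.1, 9.68 and 10.6 CPM in dox libraries and 12.6, 12.9 and 12.9 CPM in untreated libraries. The 6 NK cell markers, led by Klrb1c and Prf1 and with Eomes at 0, summed to 3.55, 10.2 and 4.23 CPM in dox replicates 1, 2 and 3 and to 3.15 to 5.51 CPM in untreated libraries. The sum was thus highest in dox replicate 2, where Ikzf3 was highest too. That peak came from Klrb1c, at 1.97, 9.19 and 2.43 CPM in dox replicates 1, 2 and 3. Prf1, at 1.12, 0.627 and 1.22 CPM, was instead lowest in replicate 2 among the dox libraries. Any link of these markers to Ikzf3 was not tested. Without dox replicate 2 the log2 fold change of Ikzf3 was 0.67 (adjusted p = 6.3e-05, edgeR).

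The 10 macrophage markers, led by Vcam1 and Cd68, summed to 26.2 to 34.9 CPM in dox libraries against 6.24 to 11.7 CPM in untreated libraries. The 8 neutrophil markers, led by S100a8 and S100a9, summed to 487.4, 103.4 and 231.8 CPM in dox replicates 1, 2 and 3 against 81.5 to 104.0 CPM in untreated libraries. Macrophage sums did not overlap between the groups, while the neutrophil sum of dox replicate 2 lay within the untreated range. The neutrophil sum was lowest among the dox libraries in replicate 2, where Ikzf3 was highest. The part of macrophages or neutrophils in the Ikzf3 result was not tested. The 5 plasma cell markers, led by Jchain and Xbp1, summed to 285.6 to 365.6 CPM in dox and 368.6 to 535.8 CPM in untreated libraries. They did not move together. Jchain (log2 fold change -1.72) and Sdc1 (-1.55) were lower in dox libraries, whereas Xbp1 (0.30) and Prdm1 (0.87) were higher. Tnfrsf17 had too few counts to test. The 8 stromal and endothelial markers, nearly all from Pecam1, summed to 130.0 to 161.1 CPM in dox and 94.8 to 103.0 CPM in untreated libraries. The 7 erythroid markers (1.32 to 7.77 CPM in dox, 3.69 to 5.52 in untreated, led by Hbb-b1 and Hba-a1), the 6 megakaryocyte markers (0.766 to 1.22 and 0.489 to 0.805, led by Gp1ba and Itga2b) and the 7 stem and early progenitor markers (0.0696 to 0.658 and 0.0699 to 0.34, led by Kit and Cd34, with Hoxa9 at 0) were all low. 

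Of 15 tested genes described in the literature as activated by Ikaros or Aiolos, 13 rose after dox and none fell, against 27% called higher and 26.6% called lower over all genes tested. The median log2 fold change was 0.99 for the list and 0.01 over all genes. This list and those below were drawn up with earlier results of these data known, so their counts are descriptions. Ikzf3 is itself on this list, and several entries, such as Cd22, Cd79b, Blnk and Cd72, are also known targets of Pax5. Cd22, which dampens B cell receptor signals, measured 178.1, 234.2 and 211.7 CPM in dox libraries against 21.0, 25.9 and 21.0 CPM in untreated libraries (log2 fold change 3.20, SE 0.13). Cd79b, a signaling chain of the receptor, rose by 1.15 (SE 0.08) and Syk, the kinase that docks on it, by 1.00 (SE 0.08). Their largest adjusted p was 1.72e-05 (edgeR). The pre-B cell regulators Foxo1 (0.93, SE 0.12) and Blnk (0.60, SE 0.07) and the cell cycle inhibitor Cdkn1b (0.70, SE 0.08) rose as well. The 2 that did not pass were Nr3c1, the glucocorticoid receptor (0.00, 95% interval -0.28 to 0.28), and Bcl6, a repressor used in pre-B and germinal center cells (-0.08, -0.38 to 0.22).

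Of 18 genes in the table described as repressed by Ikaros or Aiolos, 6 had too few counts to test (Ptcra, Ptk2, Itga5, Cd34, Kit and Ctnnd1). Among the 12 tested, 4 fell (Myc, Ccnd3, Cdk6 and Notch3) and 3 rose (Igll1, Vpreb1 and Ccnd2), with a median of -0.17. This is 58.3% called, near the 53.6% of all genes tested. Myc measured 87.8, 116.5 and 90.1 CPM in dox libraries against 289.7, 276.1 and 317.2 CPM in untreated libraries, a log2 fold change of -1.59 (SE 0.11). Cdk6, a G1 kinase, changed by -1.86 (SE 0.27) and Ccnd3, the cyclin D that pre-B cells depend on, by -0.57 (SE 0.13). The surrogate light chain genes moved the other way. Igll1 measured 892.2, 1103 and 990.8 CPM in dox libraries against 543.7, 611.8 and 568.2 CPM in untreated libraries (0.79, SE 0.09), and Vpreb1 rose by 0.81 (SE 0.07), though its reads may be shared with the near-identical Vpreb2 (0.09, not called). The fall of Notch3 (-0.68, adjusted p = 0.0487, edgeR) had overlapping groups and was called without dox replicate 2 but lost in the other 5 leave-outs, and the rise of Ccnd2 (0.53) was not called without untreated replicate 3 (adjusted p = 0.0501). Not called were Hes1 (0.15) and Dtx1 (0.02), both Notch targets, the cytokine receptor gene Flt3 (-0.38), and Dntt, terminal transferase (-0.36).

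Among factors that act upstream of or beside the Ikaros family, 9 of 11 tested rose and 1 fell (median 0.64), beside 27% called higher and 26.6% called lower over all genes. The 9 include Pax5, which the treatment is meant to restore, so its rise says nothing about the list. Pax5, the restored gene, measured 227.2, 281.2 and 230.6 CPM in dox libraries against 153.8, 93.5 and 105.2 CPM in untreated libraries (1.07, SE 0.17). The ETS factor genes Spib (0.98, SE 0.11) and Spi1 (0.70, SE 0.08) rose, as did Bach2, a repressor of plasma cell fate (1.08, SE 0.15). Irf4 (0.64, SE 0.13) and Irf8 (0.81, SE 0.12), which in pre-B cells are known to induce Ikzf1 and Ikzf3, also rose. Runx1, a blood progenitor factor, fell by 0.77 on the log2 scale (SE 0.12). Mef2c, a factor active in B cell precursors, changed by 0.23 and did not pass (adjusted p = 0.0975, edgeR), but it was called without dox replicate 1 (0.33, adjusted p = 0.00844). The small rise of Ebf1, which specifies the B lineage (0.25), was called with only 2 of the 6 leave-outs (adjusted p 0.0175 to 0.148). The rises of Tcf3 (0.30) and Foxp1 (0.28) were each lost without untreated replicate 3 (adjusted p = 0.0591 and 0.0506, edgeR).

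**Figure D3:**
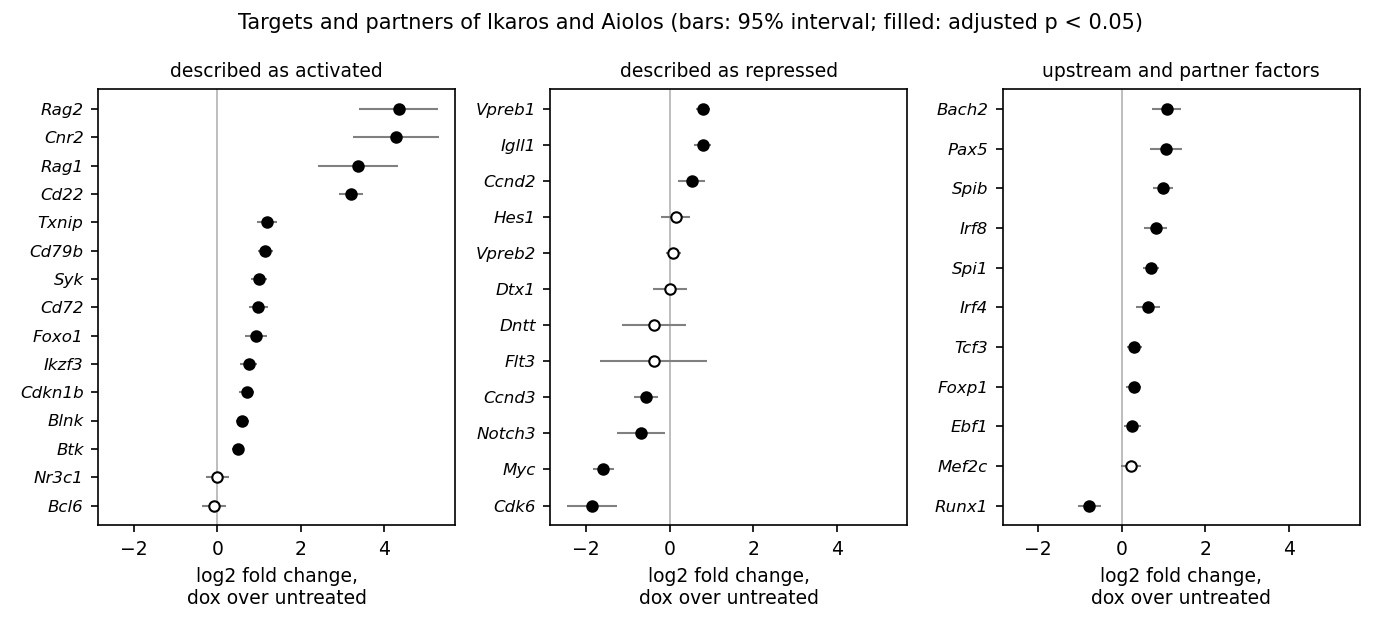
Log2 fold change of dox over untreated (horizontal axis) for tested genes described as activated by Ikaros or Aiolos, described as repressed by them, and acting upstream or as partners; bars are 95% intervals and filled points passed an adjusted p of 0.05. In the activated panel 13 of 15 points are filled, all to the right of 0, whereas the repressed panel has filled points on both sides.

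Of 13 tested subunit genes of NuRD, the remodeling and deacetylase complex that Ikaros proteins bind, 9 fell after dox, none rose and 4 did not pass (median -0.34). That is 69.2% called, all lower, beside 53.6% called and 26.6% called lower over all genes. The histone-binding subunit genes Rbbp7 (-0.88, SE 0.09) and Rbbp4 (-0.64, SE 0.07), which also serve other chromatin complexes, changed most, followed by the methyl-CpG binding domain gene Mbd3 (-0.39, SE 0.07). The remodeler Chd4, the main partner of Ikaros, measured 691.5, 773.3 and 679.6 CPM in dox against 633.2, 755.3 and 706.2 CPM in untreated libraries (0.03, 95% interval -0.17 to 0.23), with overlapping groups. Its relative Chd3 had 117.4, 26.0 and 113.4 CPM in dox replicates 1, 2 and 3 against 76.1, 113.1 and 122.3 CPM in untreated libraries. Dox replicate 2 thus stood far below every other library, and the log2 fold change of Chd3 was -0.28 with it and 0.15 without it, neither called. Mta3 (-0.07) and Gatad2b (-0.11) were not called. The fall of Mta2 (-0.16, adjusted p = 0.0483, edgeR) was lost with any of the 6 libraries left out (adjusted p 0.0638 to 0.11), and that of Hdac2 (-0.31) without untreated replicate 3 (adjusted p = 0.0534).

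In the Sin3 and CtBP corepressors, 5 of 8 tested genes fell (Rbbp8, Sap18, Sap30, Sin3a and Ctbp1) and Sin3b rose, beside 26.6% called lower and 27% called higher over all genes. Rbbp8, a CtBP-binding protein that also acts in DNA repair, changed by -0.61 (SE 0.09), Sap18 by -0.49 (SE 0.07), and the scaffolds Sin3a by -0.31 (SE 0.08) and Sin3b by 0.25 (SE 0.07). Ctbp2 had too few counts to test, and Suds3 (-0.11) and Sap130 (-0.14) did not pass. The fall of Ctbp1 (-0.17, adjusted p = 0.048, edgeR) was lost with any library left out (adjusted p 0.0533 to 0.126), and that of Sap30 (-0.39) without untreated replicate 1 or 2 (adjusted p = 0.0815 and 0.057). Sap130 was called without untreated replicate 1 (-0.20, adjusted p = 0.0475).

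Of 12 tested genes of the SWI/SNF remodeling complex, which Ikaros also contacts, 4 rose (Smarca4, Smarca2, Arid1b and Smarcd3) and 4 fell (Smarcc1, Actl6a, Smarcb1 and Smarcd2), with a median of 0.00. That is 66.7% called, beside 53.6% of all genes, with calls in both directions as over all genes. Its ATPase genes Smarca2 (0.79, SE 0.09) and Smarca4 (0.33, SE 0.09) were higher, as was Arid1b (0.50, SE 0.07). The core subunit genes Smarcc1 (-0.71, SE 0.07) and Smarcb1 (-0.45, SE 0.06) and the actin-related Actl6a (-0.63, SE 0.07) were lower. Not called were Smarcc2 (-0.05), Smarce1 (-0.04), Smarcd1 (0.04) and Arid1a (0.07). Smarcd3 (0.57), at 4.4 CPM in dox and 2.96 CPM in untreated libraries, was called with 1 of 6 leave-outs (adjusted p 0.0286 to 0.128), and Smarcd2 (-0.22) was lost without dox replicate 2 or untreated replicate 3 (adjusted p = 0.0506 and 0.075).

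Cereblon, encoded by Crbn, is the receptor through which thalidomide-type drugs send Ikaros and Aiolos to degradation in human cells. Of 8 genes listed for its ligase and related factors, 3 fell, a share of 37.5% against 53.6% of all genes. Ddb1, the adaptor, changed by -0.44 (SE 0.08), Cul4b, a scaffold, by -0.24 (SE 0.07) and Crbn by -0.18 (SE 0.06). Crbn measured 97.5, 104.8 and 106.6 CPM in dox against 116.0, 116.8 and 117.3 CPM in untreated libraries, and its call held with 1 of 6 leave-outs (adjusted p 0.0301 to 0.133, edgeR). Cul4b was lost without dox replicate 1 or untreated replicate 2 (adjusted p = 0.0704 and 0.0707), which left 1 gene called in each case. Cul4a (0.11), Rbx1 (-0.27), Dda1 (-0.02), Cop1 (0.19) and Glmn (-0.12) were not called. Rbx1 was called without untreated replicate 3 (-0.36, adjusted p = 0.034) and Cop1 without dox replicate 2 (0.27, adjusted p = 0.0345).

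Casein kinase 2 phosphorylates Ikaros and weakens its DNA binding, and protein phosphatase 1 reverses this. Of 6 genes of this kinase and phosphatase, 3 fell and 1 rose, which is 66.7% called beside 53.6% of all genes. The catalytic subunit genes Csnk2a1 (0.13) and Csnk2a2 (-0.14) were not called, while Csnk2b, the regulatory subunit, changed by -0.24 (SE 0.07). Among the phosphatase genes Ppp1cc changed by -0.40 (SE 0.08), Ppp1cb by -0.31 (SE 0.08) and Ppp1ca by 0.24 (SE 0.08). Ppp1ca was lost without dox replicate 1 or 3 or untreated replicate 2 or 3 (adjusted p 0.074 to 0.116), and Csnk2a1 was called without untreated replicate 1 (0.22, adjusted p = 0.0426).

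**Figure D4:**
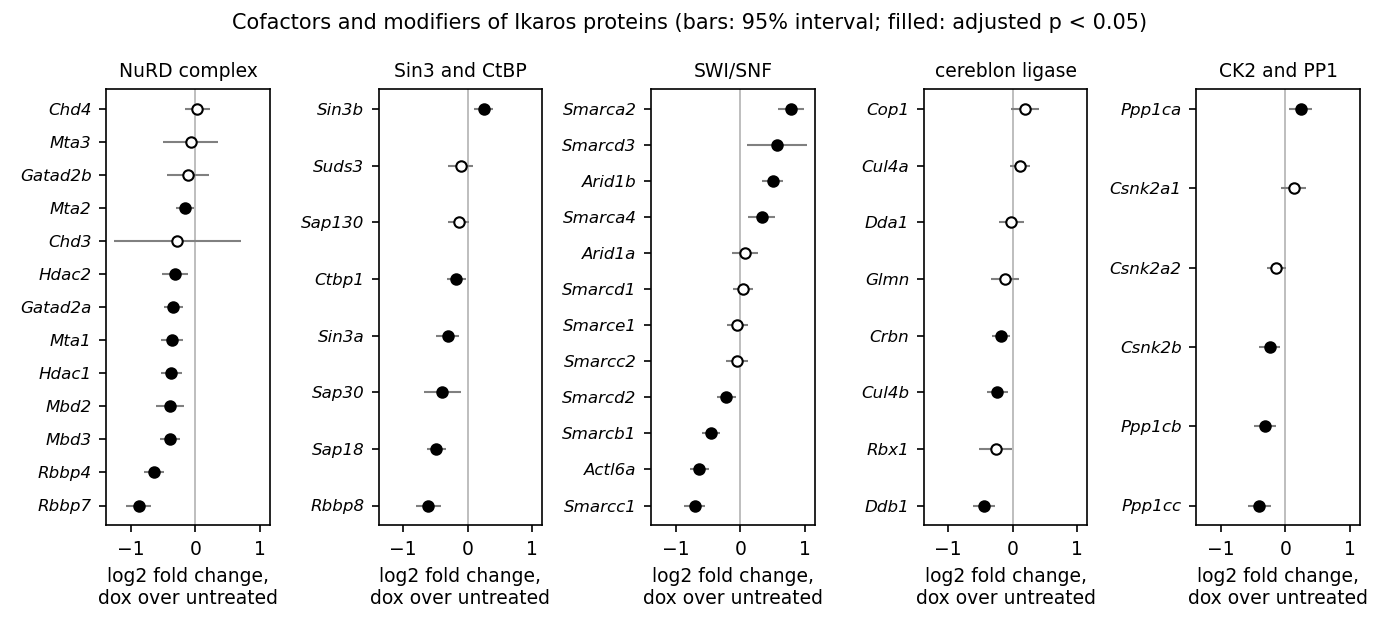
Log2 fold change of dox over untreated (horizontal axis) for the tested genes of each list. Panels are NuRD, Sin3 and CtBP corepressors, SWI/SNF, the cereblon ligase with related factors, and casein kinase 2 (CK2) with protein phosphatase 1 (PP1). Bars are 95% intervals and filled points passed an adjusted p of 0.05. All 9 filled NuRD points lie left of 0, and Chd3 has the widest interval of that panel.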

How the data were processed

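RNA of sorted leukemia cells was sequenced in 6 libraries. The authors deposited raw counts for each Entrez gene, unnormalized, beside a gene length. CASAVA 1.8.2, featureCounts and the mm9 build appear in the submitters' processing notes. For the aligner, annotation, strand setting and featureCounts version the entry is "not given in the sources used here", so overlapping genes on opposite strands cannot be told apart, and no coordinates are printed. Totals ran from 14185203 to 15612435 counts per library. The 6 per-sample files were identical to the series table.

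Symbols came from RefSeq (GRCm38.p6), for 24176 of 26286 identifiers. Genes were filtered with filterByExpr (minimum count 10), scaled by TMM (factors 0.991 to 1.01) and tested in edgeR 4.0.16 (R 4.3.3) by the quasi-likelihood F-test with no covariates, with calls made where the p adjusted by Benjamini-Hochberg was below 0.05. Intervals are 95%. RPKM is CPM over the deposited length. Fingers were found in translated GENCODE M21 transcripts by cysteine and histidine spacing. Scripts were tested on simulated data.

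Members and lists were chosen with earlier results of these data known. Genes named were the 4 members, the 3 smallest p values per pathway list and members behind counts of 5 or fewer, the 2 most abundant genes per marker list, and the 2 genes most like each member (mean of at least 5 CPM, prior count 2). One such gene and a further sequence comparison are not reported here. Rag2, Btk, Txnip and Cnr2 are plotted only. Rag1, Foxo1, Blnk, Cdkn1b, Pax5, Irf4, Irf8 and Crbn among others were described after their values had been seen. Alternatives were other scalings, filters and tests (DESeq2 1.42.0, limma 3.58.1 voom), the replicate number as a block, and leaving out each library.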

Additional observations from a re-analysis of the deposited data

How the results depend on the processing

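No direction reversed for the members or their ratios under the alternatives run. For Ikzf3 the log2 fold change stayed between 0.72 and 0.78 under other scalings, filters, tests and the block, and between 0.67 and 0.80 with 1 library left out, with adjusted p of 0.0014 or less throughout. Ikzf1 (0.07 to 0.16) and Ikzf5 (-0.23 to -0.08) were not called in any of these, and Ikzf2 gave no value. The count of genes called, 6582, ranged from 5484 to 6790. The cereblon list was the only pathway count to move by over 1.5 times, from 1 to 3 genes with 1 library left out. With the replicate number as a block, Ikzf3 had 0.75 (adjusted p = 2.44e-05), and the calls of Mta2, Ctbp1, Smarcd3 and Crbn were lost while Dntt (-0.34, adjusted p = 0.0488) was gained. The number pairs no mice in the labels, so the libraries were treated as unpaired. Same-numbered libraries nevertheless deviated together in 2 of 3 pairs (correlations of 0.305, 0.288 and -0.0373 across genes). Dox replicate 1 with untreated replicate 2 gave -0.336, and dox replicate 2 with untreated replicate 1 gave -0.283. This check does not settle whether same-numbered libraries were linked. Dox replicate 3 did not correlate best with its own number, whereas dox replicates 1 and 2 did. At upper-quartile scaling Mta2, Ctbp1, Crbn and Notch3 were lost (adjusted p 0.0607 to 0.0901), and with no low-count filter Smarcd3, Ppp1ca and Ebf1 (0.068 to 0.0694), while Rbx1 was gained (0.0491). At least 1 CPM in 3 libraries lost Mta2, Ctbp1 and Notch3 (0.0501 to 0.0521), and the DESeq2 test lost Smarcd3 (0.105). Depth sets the limit given for Ikzf2.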
